A study of Homo sapiens with 4 samples.

Results

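The genes described here are 58 splicing regulators: SR proteins, hnRNPs, KH-domain proteins, tissue-type regulators such as PTBP1, RBFOX2, MBNL1 and ESRP2, and a few related RNA-binding proteins. They were chosen by gene symbol from the 16708 genes listed in at least 1 library, and a gene missing from a library counts as 0 RPKM. RPKM divides the reads of a gene by its length and by the total of the library, so it is a level per length. Of the 58 genes, 57 were listed in at least 1 library and 54 had a mean of at least 0.5 RPKM over the 4 libraries, the limit for a test. The remaining SR gene SRSF8 and the tissue-type regulators MBNL3, CELF2 and ESRP1 are given by their levels only.

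mRNA levels were measured by RNA-Seq in BEAS2B, a virus-transformed line of human bronchial epithelial cells, with 2 libraries a group. The sh-Ctrl cells stably express an shRNA against luciferase, which the cells do not carry, and the sh-QKI cells stably express the shRNA sh-Q3 against QKI, both delivered by retrovirus. QKI is a STAR-family RNA-binding protein that regulates splicing, and a model with 1 shRNA cannot separate the loss of QKI from other effects of that shRNA. No source used here states whether libraries 1 and 2 are separate cultures, so a p-value here reflects the spread between libraries that may be technical repeats. Limma pools that spread over the genes tested, so it is not the spread of 1 gene alone. Total reads recovered from the RPKM values were 20052951 and 20571555 in the libraries numbered 1 and 34706058 and 34862008 in those numbered 2. The cells kept high levels of the keratins KRT8 (91.5 to 248 RPKM) and KRT18 (103 to 189 RPKM), which mark simple epithelia. The epithelial cadherin CDH1 was at 0.0260 to 0.181 RPKM, so this defining epithelial marker was nearly absent. Of 12 epithelial markers, 7 averaged 0.5 RPKM or more. Of 7 leukocyte markers 2 did, CD68 (12.2 to 17.3 RPKM) and CD14 (0.794 to 5.22 RPKM), while PTPRC, which defines leukocytes, was at 0.00509 RPKM or less in every library. Of 7 fibroblast markers 2 did as well, THY1 (72.9 to 85.3 RPKM) and COL1A1 (18.6 to 54.1 RPKM).

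Splice sites are chosen by competition between RNA-binding proteins. SR proteins carry an arginine-serine-rich domain, bind exonic enhancers and usually favour inclusion of the exon, whereas hnRNPs often bind silencers and oppose it. Regulators of the PTB, RBFOX, MBNL, CELF and ESRP families are restricted to certain tissues or switch between paralogues during differentiation, and they act from positions near the exon much as QKI does. Many of these genes also control their own mRNA through exons that bring in a stop codon, so their mRNA levels and their splicing are coupled.

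The first sequence below is the site in QKI that matches the shRNA and shows what was perturbed. It lies in coding sequence of QKI at chr6:163956115-163956133 on the plus strand of GRCh37 (hg19), the build of the deposited files, and capitals mark the bases that face guide positions 2 to 8.

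sh-Q3 target in QKI: gaagagagcagTTGAAGAa

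No annotated exon of the 58 regulators held this site. The closest stretch, in MBNL2, differed from it at 4 positions, and the next closest, in 13 other genes, at 5 positions. The other sequences show why some levels carry an uncertainty. The authors left out reads that aligned ambiguously, and several of these genes have near-identical processed copies elsewhere in the genome. Capitals mark a stretch of 50 bases that also occurs elsewhere without a mismatch, and lower case the 10 bases on either side. All 4 stretches are coding: those of HNRNPA1, HNRNPA3 and RBMX encode part of an RNA recognition motif, and that of YBX1 encodes part of the cold-shock domain. In GRCh37 they lie at chr12:54675595-54675664 (plus strand), chr2:178080736-178080805 (plus strand), chrX:135961204-135961273 (minus strand) and chr1:43161870-43161939 (plus strand), and the capitals have 10, 5, 3 and 2 exact copies in the order given.

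HNRNPA1: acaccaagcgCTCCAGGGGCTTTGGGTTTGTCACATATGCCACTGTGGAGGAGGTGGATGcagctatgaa
HNRNPA3: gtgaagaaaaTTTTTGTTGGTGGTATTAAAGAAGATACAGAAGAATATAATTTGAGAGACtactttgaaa
RBMX: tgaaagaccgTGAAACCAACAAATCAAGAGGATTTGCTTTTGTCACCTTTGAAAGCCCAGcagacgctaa
YBX1: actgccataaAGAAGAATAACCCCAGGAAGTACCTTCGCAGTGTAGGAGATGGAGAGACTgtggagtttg

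Of all 50-base windows in the exons of protein-coding transcripts, 29.1% had an exact copy elsewhere for HNRNPA3, 26.6% for YBX1, 26.2% for SRRM1, 23.4% for RBMX, 22.1% for HNRNPK, 19.1% for HNRNPH1, 18.9% for HNRNPA1, 17.7% for NONO, 15.5% for HNRNPL, 15.1% for HNRNPC and 12.9% for SRSF9. The levels of these 11 genes are therefore uncertain and may be understated, since reads that fit a copy equally well were left out. Other regulators had lower shares, up to 8.18% for SRSF6. Only exact copies were counted, while the authors' alignment allowed up to 3 mismatches, so more reads may have been ambiguous. For windows of 75 bases, the longer of the authors' read lengths, the shares were lower, at 17.2% for HNRNPH1, 16.98% for HNRNPA3, 16.5% for SRRM1, 14.1% for HNRNPA1, 13.1% for YBX1, 10.4% for HNRNPC, 9.24% for SRSF9, 8.55% for HNRNPK, 8.08% for RBMX, 7.22% for NONO and 6.38% for HNRNPL. Reads lost to copies can therefore differ between libraries of different read length, and which libraries those are is not known. Across the 54 genes tested the 50-base copy share had a Pearson correlation of 0.04 with the difference between sh-QKI and sh-Ctrl in libraries 1 and of 0.08 in libraries 2 (descriptions across genes, which are not replicates). With the difference between libraries 2 and 1 the correlation was 0.14 in sh-Ctrl and 0.16 in sh-QKI.

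The regulators were among the more abundant mRNAs of these cells. Of the 54 genes tested, 52 had a mean of at least 10 RPKM, against 42.4% of the 11829 genes tested, and 28 had a mean of at least 50 RPKM, against 6.63%. Their median level was 54.8 RPKM, against 7.93 RPKM over all genes tested. Summed over all 58 genes, they held 1.42%, 1.63%, 1.45% and 1.59% of the RPKM of sh-Ctrl 1, sh-Ctrl 2, sh-QKI 1 and sh-QKI 2. The hnRNPs made up 41.9% of that sum, the SR proteins 20.7%, YBX1 with the DBHS proteins and DAZAP1 12.03%, the KH-domain proteins 9.83%, the RBM and SR-related proteins 7.26%, the tissue-type regulators 6.49% and the binders of U-rich and AU-rich elements 1.77%. These shares rest on the gene lengths the authors used, as does every comparison of levels between genes below. For the genes tested those lengths were between 0.34 (HNRNPA0) and 7.09 (HNRNPH1) times the joined exons of the annotation used here. Bulk RNA cannot tell fewer cells expressing a gene from less RNA per cell.

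**Figure D1:**
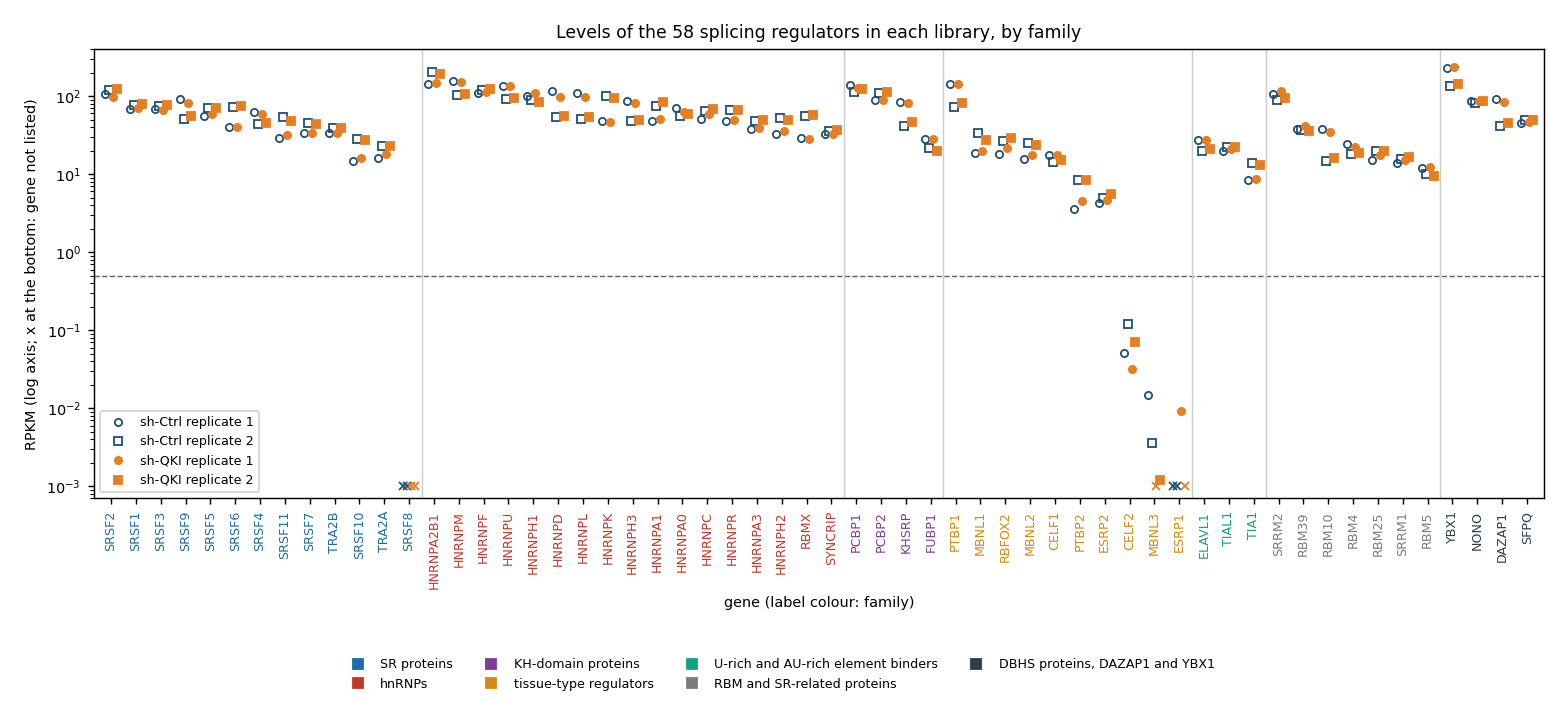
RPKM of each of the 58 regulators (x axis, by family and in order of mean level) in the 4 libraries on a log axis; circles are libraries numbered 1, squares libraries numbered 2, open symbols sh-Ctrl and filled symbols sh-QKI, and crosses at the bottom stand for a gene that was not listed. All but 4 genes lie above the dashed line at 0.5 RPKM in every library, and SRSF8, CELF2, MBNL3 and ESRP1 lie below it.

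All SR genes but SRSF8 were expressed. SRSF2, which binds exonic enhancers and also takes part in release of paused polymerase, was the highest, at 108, 119, 97.3 and 123 RPKM in sh-Ctrl 1, sh-Ctrl 2, sh-QKI 1 and sh-QKI 2, the order used throughout. SRSF1, the prototype of the family, followed at 68.0, 77.9, 71.1 and 79.4 RPKM. On the lengths the authors used, the neighbours SRSF1, SRSF3 (mean 71.5 RPKM), SRSF9 (70.7 RPKM) and SRSF5 (64.4 RPKM) were not apart beyond the spread between libraries. Those lengths were 4.36 times the joined exons for SRSF9 and 0.63 times for SRSF5. At the low end lay the SR-like genes TRA2A, with a mean of 20.0 RPKM, and SRSF10, a general repressor when dephosphorylated, with 21.7 RPKM. TRA2B, the paralogue of TRA2A, binds GAA-rich enhancers like it and was above it in every library, by ratios of 2.08, 1.73, 1.87 and 1.69. SRSF8 was not listed in any library, and no source used here says whether the authors' annotation held it.

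SRSF6, SRSF10 and SRSF11 showed how the replicate numbers differed. SRSF6 was at 40.6, 73.0, 40.0 and 74.4 RPKM, SRSF10 at 14.8, 28.1, 16.1 and 27.6 RPKM, and SRSF11 at 29.2, 53.3, 32.04 and 47.9 RPKM. Both libraries numbered 2 were higher than both numbered 1 for these genes, while sh-Ctrl and sh-QKI overlapped. SRSF9 went the other way, at 92.99, 51.1, 82.6 and 56.1 RPKM. The 12 SR genes tested had a median difference (sh-QKI minus sh-Ctrl, on the log2(RPKM + 0.5) scale used for all differences) of 0.019 in libraries 1 and 0.025 in libraries 2. Within libraries 1 they ranged from -0.17 (SRSF9) to 0.16 (TRA2A), and within libraries 2 from -0.15 (SRSF11) to 0.13 (SRSF9). Only SRSF1 and TRA2A were higher in sh-QKI within both numbers, no SR gene was lower in both, and 10 went in opposite directions.

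All 17 hnRNP genes were expressed, each with a mean of at least 34.4 RPKM, and 13 of them had a mean of at least 50 RPKM. HNRNPA2B1 binds UAG-containing elements and recognizes methylated RNA. It was the highest of the family on the lengths the authors used, at 143, 205, 146 and 195 RPKM. HNRNPM came next, at 157, 103, 153 and 106 RPKM. These neighbours swapped places between the replicate numbers, so their order is not set by these data. HNRNPA1, the classical exon silencer factor, was listed at 48.3, 75.5, 50.4 and 83.6 RPKM, or 0.34 to 0.43 times HNRNPA2B1, but 18.9% of its windows have copies. HNRNPF (mean 116 RPKM) and HNRNPH1 (95.8 RPKM), which bind G-runs, exceeded their relatives HNRNPH3 (66.5 RPKM) and HNRNPH2 (42.6 RPKM) in every library, on the lengths the authors used. Those lengths were 7.09 times the joined exons for HNRNPH1 and 2.29 times for HNRNPA2B1, so which hnRNP is highest depends on them. HNRNPU, a scaffold-attachment protein, had a mean of 113 RPKM, and SYNCRIP, a cytoplasmic and nuclear relative of HNRNPR, had the lowest mean of the family, 34.4 RPKM.

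Within the hnRNPs the differences between sh-QKI and sh-Ctrl were centred near 0, with medians of 0.0040 in libraries 1 and 0.038 in libraries 2. HNRNPD, which binds AU-rich elements and promotes mRNA decay, was at 117.3, 53.3, 98.4 and 55.1 RPKM. Its level depended on the replicate number more than on the group, with a difference between groups of -0.25 in libraries 1 and 0.048 in libraries 2. HNRNPC, which binds uridine tracts and guards Alu elements against exonization, was at 51.6, 65.2, 59.4 and 67.4 RPKM, with differences of 0.20 and 0.048. HNRNPK, which binds C-rich sequence, was at 47.5, 99.4, 46.1 and 94.0 RPKM and was the only hnRNP lower in sh-QKI within both numbers, by differences of -0.041 and -0.079. HNRNPA1, HNRNPA3, HNRNPC, HNRNPF, HNRNPR and HNRNPU were higher within both numbers, and the other 10 went in opposite directions; with values centred on the median of each library, the mean differences of HNRNPA3, HNRNPR and HNRNPU fell below 0 (-0.0072, -0.012 and -0.0043).

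The KH-domain proteins bind C-rich or U-rich single-stranded RNA through the same fold that QKI carries in extended form. PCBP1, an intronless gene, was at 137, 114, 127 and 122 RPKM, and its parent paralogue PCBP2 at 90.3, 109, 88.9 and 112 RPKM. The ratio of PCBP1 to PCBP2 was 1.52 and 1.43 in libraries 1 and 1.05 and 1.09 in libraries 2. The authors' lengths were 1.01 times the joined exons for PCBP1 and 3.82 times for PCBP2, so their order depends on the lengths. KHSRP, a splicing and decay factor, was at 82.9, 41.4, 80.8 and 46.3 RPKM. FUBP1, which binds the upstream element of MYC and also U-rich splice site sequence, was the lowest, at 28.3, 21.8, 28.3 and 19.7 RPKM. It was level in libraries 1, with a difference of -0.00060, and lower in sh-QKI in libraries 2, with a difference of -0.14.

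Among tissue-type regulators, 7 of 10 were expressed and 3 were near 0. PTBP1, the polypyrimidine tract repressor of non-neuronal cells, was at 142, 72.4, 142 and 81.8 RPKM. Its paralogue PTBP2, which takes over in differentiating neurons, was at 3.62, 8.47, 4.49 and 8.48 RPKM. PTBP1 thus exceeded PTBP2 in every library, but by 39.1 and 31.7 times in libraries 1 and by 8.55 and 9.64 times in libraries 2. The ratio differed between the replicate numbers by more than it differed between sh-Ctrl and sh-QKI. The exons of PTBP1 have a GC content of 59.1% and those of PTBP2 of 35.1%, and the part of base composition in the ratio was not tested.

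RBFOX2, which binds GCAUG and is the most broadly expressed member of its family, was at 18.3, 26.9, 21.8 and 29.2 RPKM. MBNL1 was at 18.6, 33.3, 19.9 and 27.5 RPKM and MBNL2 at 15.4, 25.2, 17.8 and 23.7 RPKM; both bind YGCY motifs and promote the adult splicing pattern of muscle. On the lengths the authors used, RBFOX2, MBNL1 and MBNL2 were not apart beyond the spread between libraries. MBNL1 was at 1.12 to 1.32 times MBNL2 in each library. Those lengths were 2.30, 3.80 and 1.87 times the joined exons for RBFOX2, MBNL1 and MBNL2, so the ratios depend on them. CELF1, which opposes the MBNL proteins at many exons, was at 17.4, 14.4, 17.5 and 15.3 RPKM.

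The epithelial splicing regulators were low. ESRP2 was at 4.21, 5.02, 4.65 and 5.52 RPKM, 65.5% of all genes tested being at a higher mean level. ESRP1, its stronger partner in epithelial cells, had 1 recovered read, in sh-QKI 1 (0.00911 RPKM). A count of 0 in the other libraries allows up to 0.0281, 0.0162 and 0.0161 RPKM (3 reads, counting error only). MBNL3 had 7, 3, 0 and 1 recovered reads, and its absence from sh-QKI 1 allows up to 0.0061 RPKM. CELF2, a regulator of heart, brain and T cells, was at 0.0516, 0.119, 0.0314 and 0.0717 RPKM, with 15 to 96 reads. ESRP1 and MBNL3 were too shallow for any difference between the groups to be detectable.

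Differences between sh-QKI and sh-Ctrl in the 7 tissue-type regulators tested had medians of 0.13 in libraries 1 and 0.085 in libraries 2. All 7 were higher in sh-QKI in libraries 1 and 5 of them also in libraries 2, the exceptions being MBNL1 and MBNL2. Over all genes tested the medians were 0.020 and 0.045, and 31.7% were higher within both numbers. RBFOX2 had differences of 0.25 and 0.12, and ESRP2 of 0.13 and 0.13. PTBP2 was higher by 0.27 in libraries 1 and by 0.0016 in libraries 2, whereas PTBP1 was higher by 0.0057 and 0.17. MBNL1 turned direction between the numbers, with 0.095 and -0.28, as did MBNL2, with 0.20 and -0.086. CELF1 was at 0.0016 and 0.085. RBFOX2 and ESRP2 were the only regulators over 0.1 higher within both numbers, 2 of 54 against 10.3% of all genes tested, and no regulator was over 0.1 lower in both, against 5.90%.

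TIA1, TIAL1 and ELAVL1 bind U-rich or AU-rich sequence; the first 2 recruit U1 snRNP to weak 5′ splice sites and the last stabilizes mRNAs. On the lengths the authors used, TIAL1 exceeded TIA1 in every library, at 19.9, 22.3, 20.9 and 22.4 RPKM against 8.38, 13.9, 8.75 and 13.0 RPKM. ELAVL1 was at 27.2, 19.6, 27.7 and 21.1 RPKM. The differences between groups of these 3 genes lay between 0.023 and 0.065 in libraries 1 and between -0.085 and 0.11 in libraries 2.

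Among the RBM and SR-related genes, SRRM2 is a large scaffold of nuclear speckles. On the lengths the authors used it stood far above the others, at 107, 89.97, 116 and 93.5 RPKM. RBM39, a partner of U2AF, followed with a mean of 37.9 RPKM. Those lengths were 1.66 times the joined exons for SRRM2 and 3.93 times for RBM39, so the gap between these genes depends on them. RBM10, which promotes exon skipping, was at 38.0, 14.8, 34.6 and 15.9 RPKM, and the gap between its libraries numbered 1 and 2 was the widest of all regulators tested. RBM4 (mean 20.9 RPKM), RBM25 (18.2 RPKM), SRRM1 (15.4 RPKM, with copies of 26.2% of its windows) and RBM5 (10.96 RPKM) were lower. SRRM1 and SRRM2 were higher in sh-QKI within both numbers, by 0.13 and 0.060 and by 0.11 and 0.055, and the other 5 went in opposite directions.

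YBX1, a cold-shock-domain protein, packages mRNA and binds C-rich exonic enhancers. It had the highest mean of all 58 genes on the lengths the authors used, at 226, 137, 234 and 142 RPKM. Its differences, 0.048 and 0.049, were the same in both numbers to within 0.01. The paraspeckle proteins NONO and SFPQ, which form heterodimers, were at 85.8, 80.9, 85.9 and 87.3 RPKM and at 45.7, 49.6, 46.3 and 49.0 RPKM. NONO was the only regulator tested whose sh-Ctrl and sh-QKI libraries did not overlap. That is 1 of 54 higher in sh-QKI against 5.71% of all genes tested, and 0 of 54 lower against 2.89%. The difference of NONO was 0.0017 in libraries 1 and 0.11 in libraries 2. DAZAP1, a splicing activator regulated by phosphorylation, was at 91.6, 41.6, 83.6 and 45.6 RPKM.

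To ask whether loss of QKI went with a change in other splicing regulators, QKI itself was read first. QKI (chr6:163835032-163999624, plus strand) was at 8.94 and 14.6 RPKM in sh-Ctrl and at 2.52 and 3.85 RPKM in sh-QKI, or 11.8 ± 4.004 against 3.19 ± 0.940 RPKM (SD, n = 2). The sh-QKI libraries lay below both sh-Ctrl libraries, with differences of -1.64 and -1.80 within the numbers. In limma without a block, the log2 fold change was -1.72 (SE 0.38, adjusted p = 1.00); with the replicate number as a block, it was -1.72 (SE 0.13, adjusted p = 3.16e-33). Limma without a block called no gene of 11829 at an adjusted p under 0.05 (4 higher and 9 lower at an unadjusted p under 0.05), so it could not have called a regulator. With the block, 58 genes were called higher (0.49%) and 43 lower (0.364%), and none of the 54 regulators was called in either direction or had an unadjusted p under 0.05. Of all 11829 genes, 407 were higher and 320 lower at that unadjusted p.

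**Figure D2:**
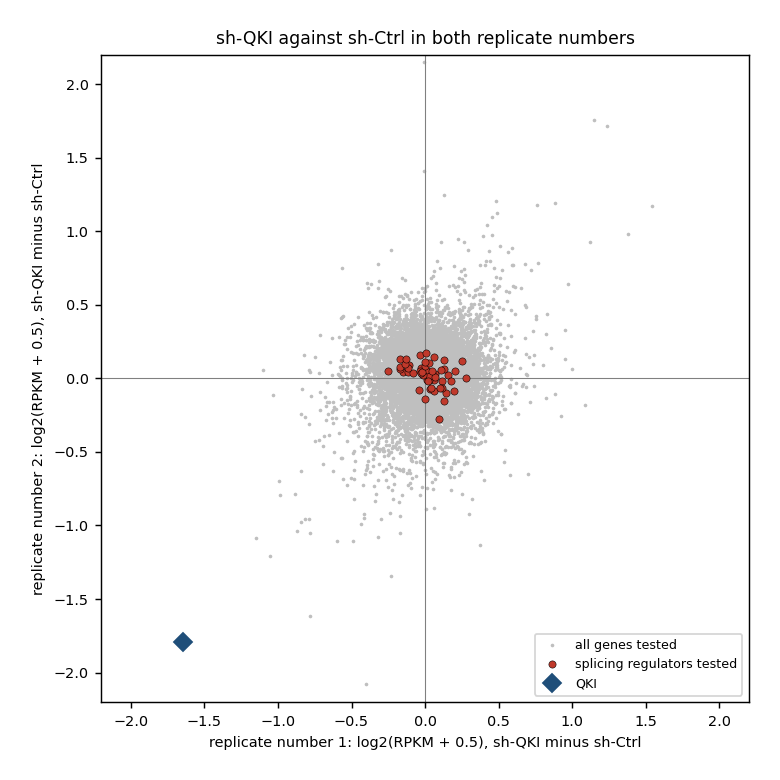
Difference between sh-QKI and sh-Ctrl (log2(RPKM + 0.5)) in libraries 1 (x axis) and libraries 2 (y axis), with grey points for the 11829 genes tested, red points for the 54 regulators and a diamond for QKI. The regulators lie between -0.25 and 0.27 on the x axis and between -0.28 and 0.17 on the y axis, and QKI lies at -1.64 and -1.80.

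RBFOX2 had the largest log2 fold change of the regulators with the same sign in both numbers, 0.18 (SE 0.34 without the block and 0.12 with it), and was first of the 54 by p in both fits, with limma adjusted p = 1.00 without the block and 0.999 with it. The next in order were PTBP2 at 0.14, ESRP2 at 0.13, HNRNPC at 0.13, HNRNPA1 at 0.10 and SRRM1 at 0.095. At the other end stood FUBP1 at -0.072 and HNRNPK at -0.060, followed by HNRNPR at 0.023, HNRNPA3 at 0.027, HNRNPU at 0.030 and TIAL1 at 0.035. In limma all 12 had an adjusted p of 0.999 with the block and of 1.00 without it. Leaving out 1 library turned the direction of 10 of the 12, RBFOX2 included (-0.090 to 0.45), and not that of ESRP2 (0.013 to 0.24) or SRRM1 (0.0069 to 0.18). Fits with 1 library left out had no block, so their log2 fold changes also take in the difference between the replicate numbers. FUBP1 and HNRNPK were the only regulators tested that were lower in sh-QKI within both numbers, 2 of 54 against 16.6% of all genes tested. CELF2 and MBNL3, which were not tested, were lower within both as well, MBNL3 on a few reads. Higher within both were 19 of 54 against 31.7%, and 33 of 54 went in opposite directions against 51.7%. No regulator tested was over 2-fold apart on group means, against 0.234% of genes higher and 0.335% lower. With the block, the SE of a regulator lay between 0.12 (HNRNPA3) and 0.14 (ESRP2), so differences of the size seen here could not be told from 0. These SEs, and the p-values with the block, rest mainly on the spread pooled over all genes.

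Small differences were frequent among the regulators. Both differences were within 0.1 for 24 of 54, against 19.2% of all genes tested, and either difference was over 0.2 for 5 of 54, against 45.5%. The 5 genes were HNRNPC, HNRNPD, MBNL1, PTBP2 and RBFOX2. The SD over the regulators was 0.11 in libraries 1 and 0.085 in libraries 2, against 0.20 and 0.21 over all genes tested and 0.16 and 0.17 over genes averaging 10 RPKM or more. Depth moves with this, since counting error is smaller at higher levels, and its part was not tested. The median difference over the regulators was 0.024 in libraries 1 and 0.038 in libraries 2, against 0.020 and 0.045 over all genes tested. Across the 54 genes the differences in libraries 1 and in libraries 2 had a Pearson correlation of -0.34, and across all 11829 genes of 0.10.

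**Figure D3:**
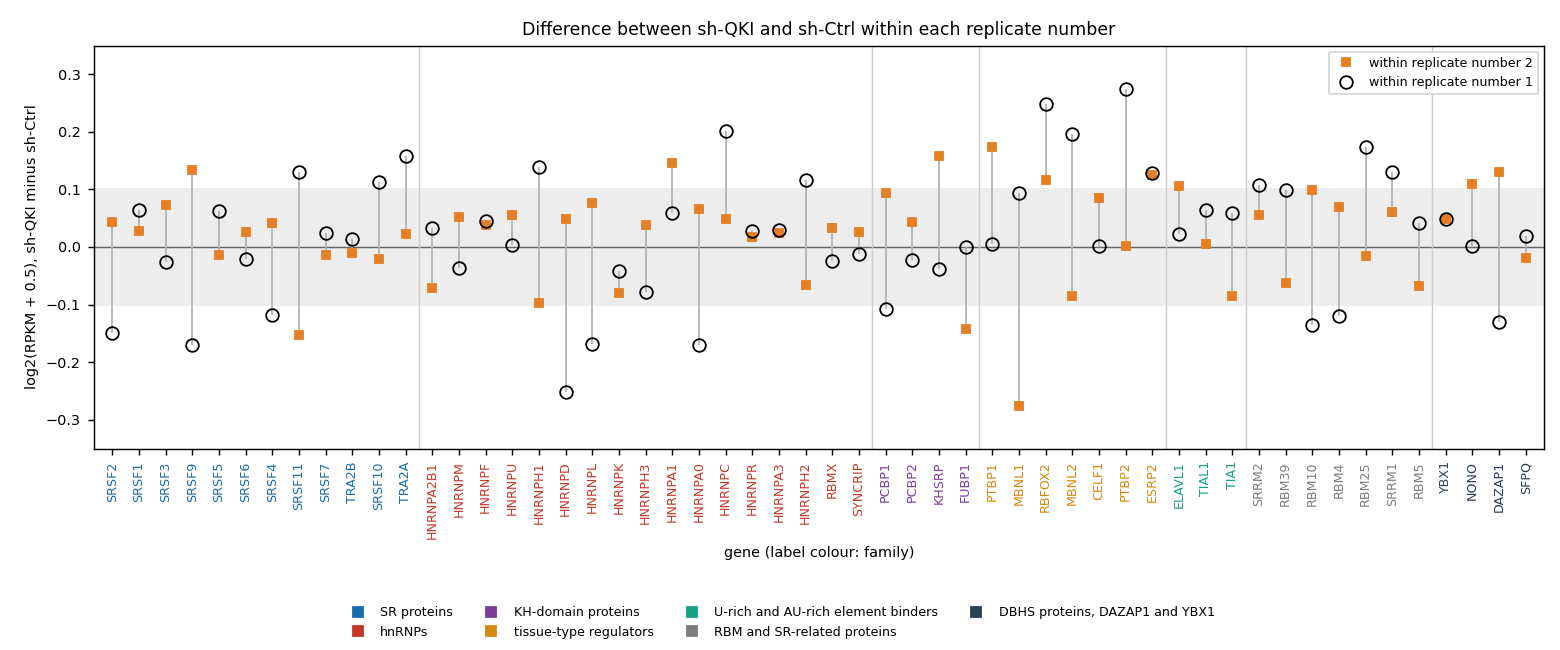
Difference between sh-QKI and sh-Ctrl for the 54 regulators tested (x axis, by family), within libraries 1 (open circles) and libraries 2 (squares), on the log2(RPKM + 0.5) scale; the grey band spans 0.1 in either direction and a line joins the values of a gene. The circle and the square lie on opposite sides of 0 for 33 genes, and RBFOX2 and ESRP2 have both above the band.

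The replicate numbers differed far more than the groups. Between libraries 2 and 1, the SD over the 54 regulators was 0.63 in sh-Ctrl and 0.53 in sh-QKI. RBM10 was lower in libraries 2 by -1.33 in sh-Ctrl and -1.09 in sh-QKI, PTBP2 was higher by 1.12 and 0.85, and HNRNPK was higher by 1.06 and 1.02. In sh-Ctrl 6 of 54 regulators were over 2-fold apart (HNRNPD, HNRNPK, HNRNPL, PTBP2, RBM10 and DAZAP1), against 21.8% of all genes tested, and in sh-QKI 3 of 54 (HNRNPK, RBMX and RBM10), against 11.9%. The same sign held in both groups for 22 regulators lower and 31 higher in libraries 2, against 45.6% and 45.8% of all genes tested, and only NONO changed sign. The authors sequenced at 2 read lengths in separate runs, but no source used here ties a replicate number to a length, so number, run and depth cannot be told apart.

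**Figure D4:**
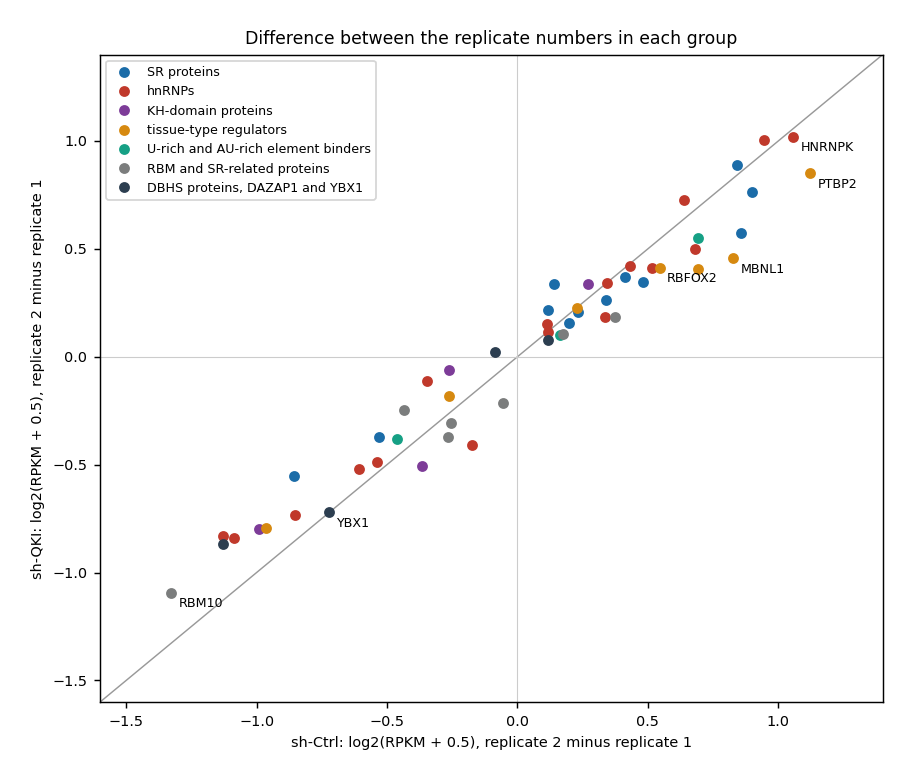
Difference between libraries 2 and libraries 1 on the log2(RPKM + 0.5) scale in sh-Ctrl (x axis) and sh-QKI (y axis), with a point for each of the 54 regulators, coloured by family, and the line of equal values. Points run along the line from RBM10 (-1.33 and -1.09) to HNRNPK (1.06 and 1.02) and PTBP2 (1.12 and 0.85).

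GC content moved with these differences. Over the exons of the 54 regulators its median was 42.6%, against 48.7% over the 11418 genes tested that had a value. Across the regulators it had a Pearson correlation of -0.63 with the difference between libraries 2 and 1 in sh-Ctrl and of -0.60 in sh-QKI, against -0.72 and -0.63 across all genes. With the difference between sh-QKI and sh-Ctrl the correlation was -0.32 in libraries 1 and 0.53 in libraries 2, against -0.36 and 0.48 across all genes. Of the 27 regulators with a GC content over 42.6%, 22 were higher in sh-QKI in libraries 2, and of the other 27, 15 were. In libraries 1 the counts were 15 and 19. All genes, split at their own median of 48.7%, had 5709 on each side. Of those over it, 4569 were higher in libraries 2 and 2249 in libraries 1. Of the others, 2352 and 3989 were. These are descriptions across genes that share the same 4 libraries, and the part of base composition in any difference above was not tested. A fit with log2 values corrected for GC content and the replicate block was added after the data were seen. It called 158 genes higher (1.38%) and 130 lower (1.14%) of 11418, and again none of the 54 regulators. RBFOX2 alone of the 54 was under an unadjusted p of 0.05 (limma adjusted p = 0.260). Of all 11418 genes, 1004 were higher and 546 lower at that unadjusted p.

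**Figure D5:**
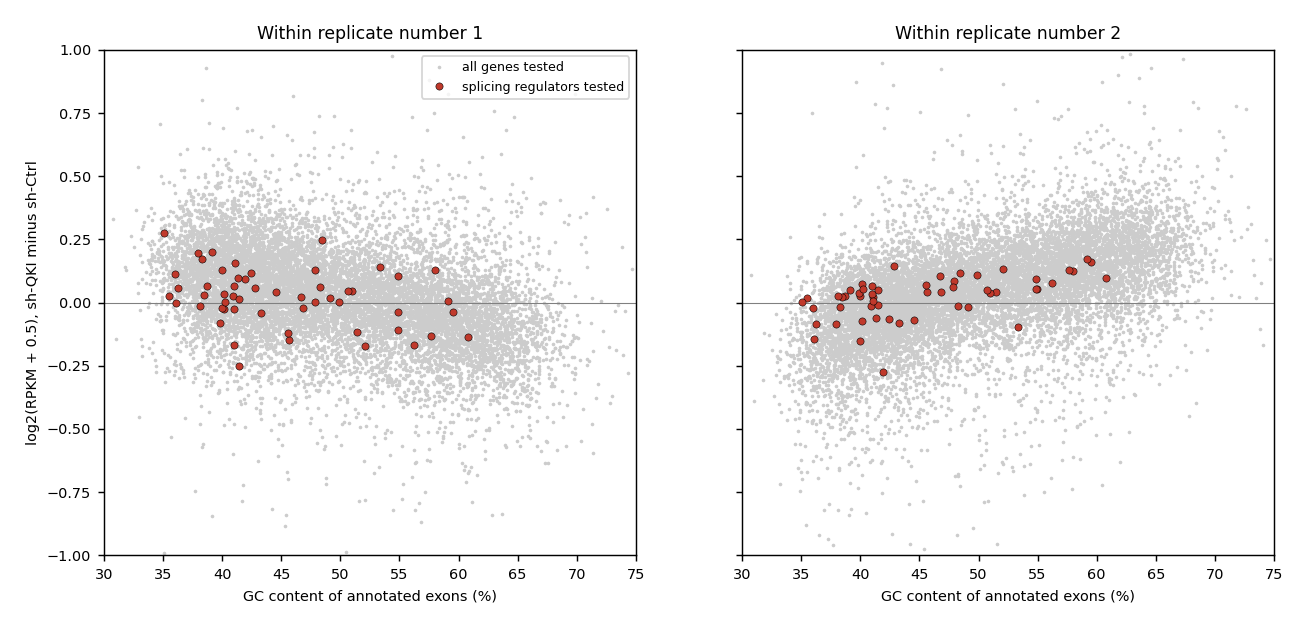
Difference between sh-QKI and sh-Ctrl on the log2(RPKM + 0.5) scale (y axis) against the GC content of annotated exons (x axis, %) within libraries 1 (left) and libraries 2 (right), with grey points for all genes tested that have a value and red points for the 54 regulators; genes beyond 1 on the y axis are not drawn. The points slope down on the left (Pearson correlation -0.32 over the regulators) and up on the right (0.53).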

How the data were processed

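Per the methods, single-end Illumina GAII reads were aligned to hg19 and to junctions between Ensembl exons with Bowtie (up to 3 mismatches; no source used here gives its version), and reads with ambiguous alignments were dropped. The deposited values are RPKM per gene and library, computed by the authors; no source used here gives the lengths and totals they divided by. Totals, reads and lengths were recovered from the spacing of the values (100% whole, relative tolerance 1e-11). They are the smallest whole numbers that fit, and reads summed over genes came to 1.35 to 1.53 times the totals.

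Levels were compared on log2(RPKM + 0.5), which understates changes of low genes, for genes averaging 0.5 RPKM or more, with limma 3.58.1 (R 4.3.3; mean-variance trend, two-sided, Benjamini-Hochberg adjusted p under 0.05 over all genes), without a block and with a block for the replicate number. The fit was also run on simulated data with known fold changes. Those data carried no trend of the group difference with GC content, unlike the real data, and no result here rests on them. GC content, positions and copies of 50-base windows were read from GRCh37 and a GENCODE annotation lifted to it; 96.5% of genes tested had a GC value. Genes with a tested fold change were the 6 highest and 6 lowest with the same sign in both numbers. The genes and lists were chosen with earlier results of these data known. Alternatives were the pseudocount, the limit, median centring, voom on recovered reads, GC correction and leaving out a library.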

Additional observations from a re-analysis of the deposited data

How the results depend on the processing

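None of the 54 regulators was called by limma in any fit of all 4 libraries. The count was 0 in each direction without a block and with the replicate block. It was also 0 with a pseudocount of 0.1 or 1, a limit of 1 RPKM or none, median centring, voom or GC correction. The fits without a block called no gene of all those tested, so they could not have called a regulator. Only the fits with the block bear on the count. The replicate numbers are a number only, as nothing says what they share; deviations of same-numbered libraries correlated at 0.953 across all genes and 0.977 across the regulators. Of QKI and the 54 regulators, the block changed the call of QKI alone, with a log2 fold change of -1.72 under the replicate block, -1.75 with median centring, -1.88 with voom and -1.69 with GC correction, and -2.06 to -1.38 without a library. The calls over all genes with the block were 58 higher and 43 lower, 48 and 66 with median centring, 69 and 68 with voom, and 158 and 130 with GC correction; the split between higher and lower thus turned with centring.

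Median centring, with or without the replicate block, took the median of the regulators from 0.020 to -0.015, the SR proteins to -0.030, the hnRNPs to -0.026, the tissue-type regulators to 0.056 and the RBM and SR-related proteins to -0.016, and turned HNRNPR to -0.012, HNRNPA3 to -0.0072 and HNRNPU to -0.0043. GC correction, with or without the block, gave 0.021 for the SR proteins. Without a limit the tissue-type median was 0.049, and 2 regulators were over 2-fold apart, MBNL3 and ESRP1, on a few reads. Per joined exon length in place of the authors' length, the SR share was 24.5%, the hnRNP share 45.5%, KH-domain 8.40%, tissue-type 4.69%, U-rich and AU-rich binders 1.35% and YBX1 with DBHS proteins and DAZAP1 8.19%.

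Leaving out a library leaves 1 in a group, assumed to vary like the other. Medians then ranged from -0.039 to 0.10 for the regulators, -0.13 to 0.17 for SR proteins, -0.043 to 0.10 for hnRNPs, -0.20 to 0.12 for KH-domain proteins, -0.090 to 0.32 for tissue-type regulators, -0.045 to 0.12 for U-rich and AU-rich binders, -0.090 to 0.13 for RBM and SR-related proteins and -0.15 to 0.25 for YBX1 with DBHS proteins and DAZAP1. Log2 fold changes turned direction for FUBP1 (-0.33 to 0.18), HNRNPA1 (-0.26 to 0.46), HNRNPA3 (-0.15 to 0.20), HNRNPC (-0.043 to 0.29), HNRNPK (-0.59 to 0.47), HNRNPR (-0.19 to 0.24), HNRNPU (-0.24 to 0.30), PTBP2 (-0.42 to 0.70), RBFOX2 (-0.090 to 0.45) and TIAL1 (-0.045 to 0.12). The libraries left unmatched by number differ in the replicate number as well as the group. With 2 libraries a group, changes of the size seen in these regulators could not be told from 0.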

Other observations

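Other genes of the same pathway were expressed too. All 10 genes for the kinases and nuclear import of SR proteins had a mean of at least 0.5 RPKM, with the import receptor TNPO3 highest, at 37.1, 21.4, 35.2 and 22.1 RPKM in sh-Ctrl 1, sh-Ctrl 2, sh-QKI 1 and sh-QKI 2. TNPO3 was higher in both libraries numbered 1 than in both numbered 2, and its groups overlapped. The median difference of the 10 genes between sh-QKI and sh-Ctrl was 0.072 in libraries 1 and 0.011 in libraries 2 (log2(RPKM + 0.5)), against 0.020 and 0.045 over all genes tested. None was called by limma with or without the replicate block, against 0.49% of all genes higher and 0.364% lower with it.

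All 22 further hnRNP-like and RBM genes were expressed, with HNRNPAB, a CBF-A type hnRNP, highest, at 176, 93.3, 165 and 97.8 RPKM. Their median differences were -0.070 in libraries 1 and 0.080 in libraries 2, and none was called. Of 16 paralogues restricted to neurons, muscle or other tissues, 14 were listed in at least 1 library and 3 had a mean of at least 0.5 RPKM: RBM24, a muscle splicing regulator, with the highest mean of 7.23 RPKM, ELAVL2 and SRRM3. RBM24 was at 6.53, 7.97, 6.57 and 7.85 RPKM, so its groups overlapped. ELAVL2 was at 0.654, 1.39, 0.493 and 1.42 RPKM and SRRM3 at 1.66, 0.697, 1.17 and 0.757 RPKM, both apart by replicate number rather than by group.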
